A study of Mus musculus with 6 samples.

Results

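The Hox genes of clusters A to D were read in BMPR1B+ chondrocytes from mouse knee cartilage. The 38 genes were listed by name under a rule that uses no measured value, although earlier results of these data were known when the family was chosen. Each was found among the 22032 genes of the deposited matrix: 10 in cluster A, 10 in cluster B, 9 in cluster C and 9 in cluster D. RNA-seq covered 3 samples from embryos at E16.5 and 3 from adults of 2 months, and the question was how the chondrocyte transcriptome differs between these stages. Cells of both stages were sorted as negative for blood, endothelial and red cell antigens (CD45, CD31, Ter119), negative for alkaline phosphatase (ALP) and positive for BMPR1B, a bone morphogenetic protein receptor that marks articular chondrocytes. The adults were male B6 mice, and the sex and strain of the embryos are not given in the sources used here, so stage and sex cannot be told apart. No genetic alteration is named for either stage, and how many animals went into a sample is not given. Levels are in TPM, a share of all transcripts that is scaled for gene length and so can be compared between genes within a sample. Differences are adult minus embryonic on the log2(TPM + 1) scale, which understates the change of low genes.

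Hox genes encode homeodomain transcription factors that give cells along the body and limb axes their positional identity. In mammals they lie in 4 clusters, and genes at the same place in different clusters form a paralog group, numbered from 1 at the 3′ end of the cluster to 13 at the 5′ end. Low-numbered genes are switched on early and towards the head, high-numbered genes late and towards the tail. In the limb, the 5′ genes of clusters A and D pattern the skeleton from thigh to foot, with group 10 needed for the thigh, group 11 for the shank and group 13 for the foot, and cluster C is used in the hindlimb.

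A few genes of groups 8 to 10 from clusters A, C and D held most of the Hox RNA of embryonic knee chondrocytes. Adult chondrocytes had more Hox RNA, with more genes above 5 TPM. The 38 genes together summed to 133.0, 127.1 and 150.8 TPM in the embryo and 285.6, 314.6 and 323.7 TPM in the adult, or 137.0 ± 12.3 against 308.0 ± 19.9 TPM (SD, n = 3). Every adult sum lay above every embryonic one. In the embryonic samples 5 genes exceeded 5 TPM in all 3 samples (*Hoxc10*, *Hoxa10*, *Hoxd8*, *Hoxa9* and *Hoxd10*), and in the adult samples 13 genes did. Genes at 0 in all 3 samples of a stage numbered 8 in the embryo and 10 in the adult. By stage mean *Hoxc10* was the highest at both stages, although in embryonic sample 1 it lay below *Hoxa10*. *Hoxa10*, *Hoxd8* and *Hoxa9* followed it in the embryo, whereas *Hoxc6* stood second in the adult. Because the samples are bulk RNA, fewer expressing cells and less RNA per cell cannot be told apart.

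**Figure D1:**
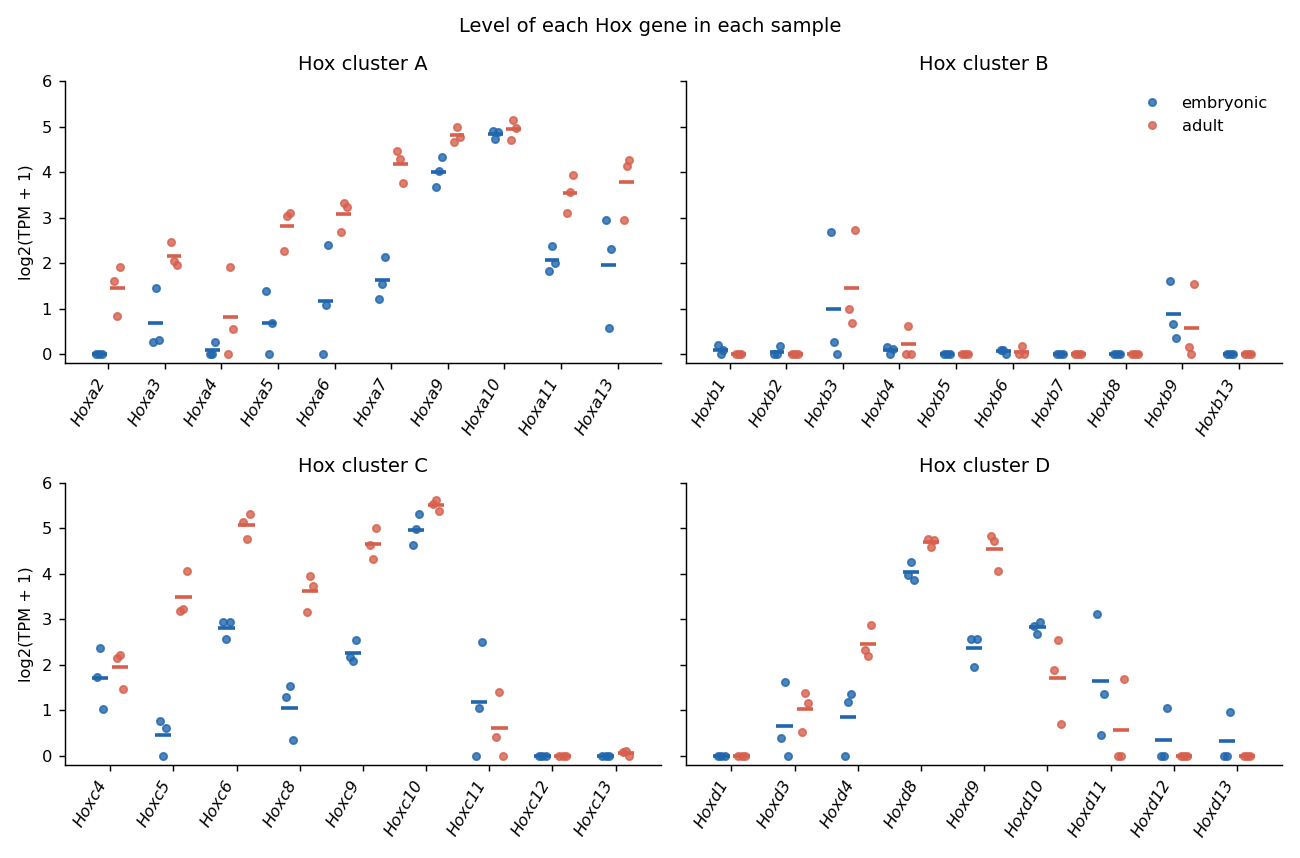
Level of each of the 38 Hox genes on the log2(TPM + 1) scale (vertical axis) in each sample (points) with the stage mean (bars), for clusters A to D, ordered along each cluster from low to high paralog group. Cluster B lies near 0 apart from *Hoxb3* and *Hoxb9*, and groups 5 to 9 of clusters A, C and D have their adult points above their embryonic points.

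Of the 38 genes, 21 had a mean of at least 1 TPM and were tested across stages, 17 were not tested, and 12 stayed under 1 TPM in every sample. Among the 21, 14 were higher in the adult, none was lower and 7 did not pass an adjusted p under 0.05 (limma). Over all 13125 tested genes, 45.3% passed, 23.9% as higher and 21.4% as lower in the adult. At an unadjusted p under 0.05 from the same fit the count was 15 higher and 0 lower. The median difference of the 21 genes was 1.48, and that of all tested genes was 0.16. By cluster, 7 of 8 tested genes were higher in A, 0 of 1 in B, 4 of 7 in C and 3 of 5 in D. By paralog group, 2 of 4 tested genes of groups 1 to 4 were higher, 7 of 7 of groups 5 to 8, 3 of 6 of groups 9 and 10, and 2 of 4 of groups 11 to 13. A gene could also reach the mean of 1 TPM through its higher stage alone, so the counts describe the tested genes and not all members. Among the 14 higher genes this held for *Hoxa3*, *Hoxa5*, *Hoxc5* and *Hoxd4*, with embryonic means of 0.731, 0.749, 0.408 and 0.952 TPM.

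Of the 14 higher genes, *Hoxa5*, *Hoxa7*, *Hoxc5*, *Hoxc6*, *Hoxc8*, *Hoxc9* and *Hoxd9* stayed past the threshold in every alternative fit they entered. The other 7 (*Hoxa3*, *Hoxa6*, *Hoxa9*, *Hoxa11*, *Hoxa13*, *Hoxd4* and *Hoxd8*) lost it in at least 1. The count of higher genes ranged from 8 to 12 when each sample was left out in turn. It fell to 8 without adult sample 2 or embryonic sample 1 and to 9 without adult sample 1, adult sample 3 or embryonic sample 2.

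**Figure D2:**
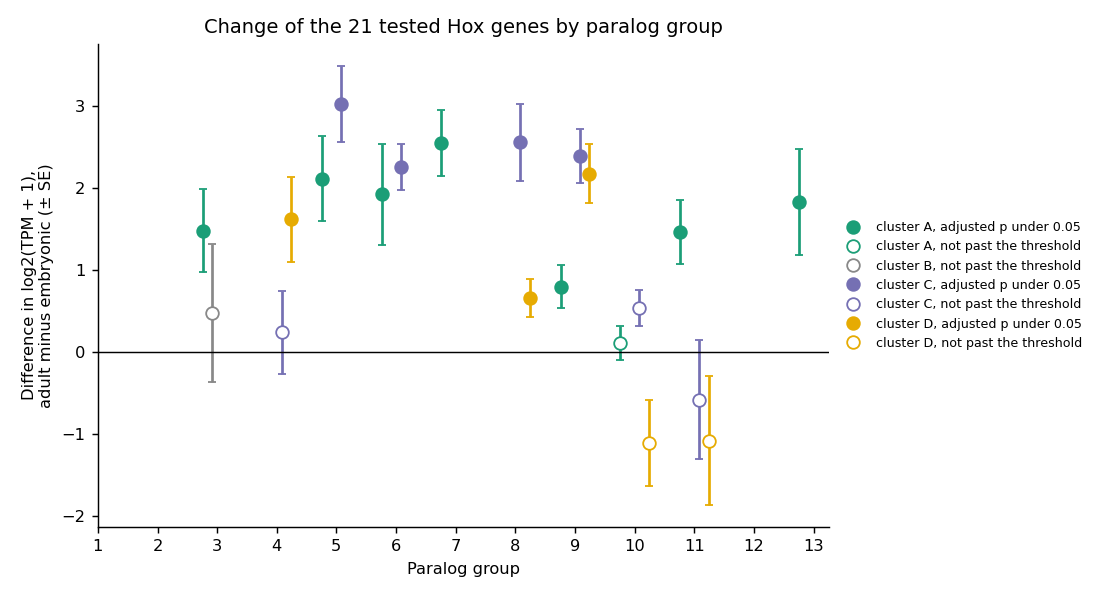
Difference between adult and embryonic log2(TPM + 1) (vertical axis, ± SE) against paralog group (horizontal axis) for the 21 tested Hox genes, coloured by cluster, with filled points past an adjusted p of 0.05. The filled points lie between 0.66 and 3.02, and the 3 points below 0, *Hoxd10*, *Hoxc11* and *Hoxd11*, are open.

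Markers of other cell types moved with stage as well. The summed TPM of 10 chondrocyte genes, among them *Col2a1*, *Acan* and *Sox9*, ran from 23323 to 25101 in the embryonic and from 35091 to 37404 in the adult samples, and all 10 reached 1 TPM at both stages. Of the 10, 3 were higher and 6 lower in the adult: *Prg4*, the lubricin of the joint surface, went from between 122.7 and 193.9 TPM to between 23818 and 26392 TPM and accounted for the higher sum, while *Col2a1*, the main cartilage collagen, went from between 14154 and 15251 TPM to between 3166 and 7084 TPM. Summed tendon and fibroblast genes (5 genes) ran from 5044 to 5631 TPM in the embryonic and from 401 to 669 TPM in the adult samples, with 3 of 5 lower, and the tendon factor *Scx* was at 0 in 2 adult samples. Summed synovium and stroma genes (4 genes) ran from 370 to 422 and from 73.4 to 86.4 TPM, with 3 of 4 lower. Summed osteoblast genes (5 genes, with *Col1a1* the most abundant) ran from 4908 to 5989 and from 514 to 1033 TPM, with 2 of 5 higher and 2 lower. *Col1a1*, which fibroblasts also make, was lower and carried the sum. The bone matrix gene *Dmp1* was lower too, at 10.1 to 16.3 TPM in the embryo and 0.0611 to 3.51 TPM in the adult. The bone matrix genes *Ibsp* and *Bglap* were higher. *Ibsp* stood between 0.148 and 29.6 TPM in the embryo and between 235 and 316 TPM in the adult. *Bglap* had 0 in each embryonic sample against 15.8 to 83.9 TPM in the adult ones. *Sp7* did not pass (adjusted p = 0.450). Muscle genes (6 genes) stood in sum at 61.4 to 70.4 and 1.79 to 15.9 TPM, with *Des* the 1 gene past the threshold, and leukocyte genes (6 genes) at 5.67 to 13.7 and 19.0 to 72.5 TPM, with *Cd68* the 1 gene past it. Endothelial genes (4 genes) stood at 10.6 to 23.0 and 3.79 to 10.8 TPM. *Tek* was the 1 endothelial gene past the threshold, as lower (9.21 to 19.0 against 0.121 to 0.889 TPM), while *Pecam1* lay at 1.29 to 1.75 TPM in the embryo and 2.79 to 6.87 TPM in the adult (adjusted p = 0.123). Nerve (4 genes) and skin (3 genes) lists overlapped between stages, at 1.88 to 3.59 against 1.55 to 10.1 TPM, and 0.199 to 1.46 against 0.405 to 2.44 TPM. *Krt5*, *Krt14* and *Cd3e* were at 0 in every sample. The part of these lists in the Hox differences was not tested.

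Sequences just before the transcription start are shown for genes that stand for the different patterns: *Hoxa5*, *Hoxa7* and *Hoxd9* rose, *Hoxa10* was among the highest at both stages, and *Hoxb8* was at 0 everywhere. They were chosen with the values known. Hox promoters are rich in the dinucleotide CG, where unmethylated stretches recruit Polycomb and Trithorax complexes, the chromatin regulators that hold Hox genes off or on. Each is the 250 bases upstream of a RefSeq start (GRCm38.p6), printed 5′ to 3′ on the gene's own strand, with every CG in capitals. *Hoxa10* has 2 starts in the table.
Hoxa5, chr6:52204588-52204837, minus strand, 28 CG: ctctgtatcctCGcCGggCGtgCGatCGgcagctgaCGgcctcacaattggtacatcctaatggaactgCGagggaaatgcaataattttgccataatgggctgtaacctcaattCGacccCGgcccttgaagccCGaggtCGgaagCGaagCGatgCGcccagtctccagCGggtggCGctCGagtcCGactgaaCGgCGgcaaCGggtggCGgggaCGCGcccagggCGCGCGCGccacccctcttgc
Hoxa7, chr6:52218574-52218823, minus strand, 7 CG: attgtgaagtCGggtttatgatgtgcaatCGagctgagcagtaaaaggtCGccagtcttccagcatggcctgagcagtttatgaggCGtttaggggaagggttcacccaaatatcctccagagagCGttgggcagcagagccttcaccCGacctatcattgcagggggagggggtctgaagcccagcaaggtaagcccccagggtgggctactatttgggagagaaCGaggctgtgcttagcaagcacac
Hoxd9, chr2:74697513-74697762, plus strand, 13 CG: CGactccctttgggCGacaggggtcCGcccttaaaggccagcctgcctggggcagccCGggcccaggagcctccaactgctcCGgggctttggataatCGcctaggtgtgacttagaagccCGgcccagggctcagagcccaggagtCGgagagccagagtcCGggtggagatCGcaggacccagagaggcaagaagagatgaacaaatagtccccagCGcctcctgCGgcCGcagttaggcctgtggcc
Hoxa10, upstream start, chr6:52240855-52241104, minus strand, 7 CG: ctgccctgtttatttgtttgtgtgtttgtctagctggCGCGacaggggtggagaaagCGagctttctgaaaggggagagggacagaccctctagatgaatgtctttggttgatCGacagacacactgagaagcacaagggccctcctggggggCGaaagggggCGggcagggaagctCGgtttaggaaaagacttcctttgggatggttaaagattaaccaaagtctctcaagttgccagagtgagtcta
Hoxa10, downstream start, chr6:52234940-52235189, minus strand, 20 CG: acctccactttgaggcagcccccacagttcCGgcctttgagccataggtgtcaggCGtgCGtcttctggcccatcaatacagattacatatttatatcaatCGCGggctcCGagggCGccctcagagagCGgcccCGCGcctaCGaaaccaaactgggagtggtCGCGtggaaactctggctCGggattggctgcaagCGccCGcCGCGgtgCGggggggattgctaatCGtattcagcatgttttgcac
Hoxb8, chr11:96281655-96281904, plus strand, 12 CG: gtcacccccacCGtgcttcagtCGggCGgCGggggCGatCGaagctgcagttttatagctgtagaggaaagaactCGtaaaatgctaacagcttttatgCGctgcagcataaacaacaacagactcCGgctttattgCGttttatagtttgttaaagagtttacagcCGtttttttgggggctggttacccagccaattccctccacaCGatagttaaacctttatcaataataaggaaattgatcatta

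RefSeq windows were found for 22 of the 38 genes, 24 windows in all, and 16 genes had none in the table. The median number of CG was 12.5 in the 24 Hox windows and 6 in all 32851 windows of the same length. Between the genes that rose and the others the CG number overlapped: it ran from 3 to 35 in the 10 windows of higher genes, from 2 to 20 in the 6 windows of tested genes that did not pass, and from 6 to 31 in the 8 windows of untested genes. The letters TGATNNAT, a core shared by PBX and HOX proteins bound together, were searched on both strands and stood in 0 of the 10, 1 of the 6 and 3 of the 8 windows, or 16.7% of the Hox windows and 7.68% of all windows. The letters CCAAT, also on both strands, stood in 58.3% of the Hox windows and 33.8% of all windows. Matches of the pair can overlap only at the letters AT, on opposite strands, or at the letter T, on the same strand. These are matches of letters in short windows and not bound sites.

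In groups 5 to 8, the middle of each cluster, all 7 tested genes rose and the other 4 stayed under 1 TPM in every sample. Of the 7, *Hoxa5* and *Hoxc5* reached the mean of 1 TPM needed for testing through their adult values alone. The summed level of the 11 genes went from 28.0 ± 1.42 TPM to 111 ± 8.31 TPM (SD, n = 3), and their share of all Hox TPM from 20.5 ± 1.42% to 36.2 ± 1.95%. *Hoxc6* had the highest mean of them in the adult, with *Hoxd8* highest in the embryo, and is used along the trunk and at the limb level. *Hoxc6* measured 6.63, 4.89 and 6.74 TPM in the embryonic and 34.0, 26.0 and 38.9 TPM in the adult samples. All adult values were well above the embryonic ones, a 5.42-fold higher mean (difference 2.25, SE 0.28, adjusted p = 0.000343). Its neighbour *Hoxc5*, a gene of the neck and upper trunk, measured 0.695, 0 and 0.531 TPM in the embryonic and 8.07, 8.29 and 15.6 TPM in the adult samples. The stages were apart. Its fold of 26.1 rests on a zero in 1 embryonic sample, and the difference was 3.02 (SE 0.46, adjusted p = 0.000961), the largest of the tested Hox genes. Of the exonic bases of *Hoxc5*, 5.37% are shared with *Hoxc10* on the same strand, as are 8.70% of those of *Hoxc10*. How reads of that stretch were split between the 2 genes is uncertain. *Hoxc8*, which patterns the lower trunk, measured 1.44, 1.90 and 0.275 TPM in the embryonic and 7.89, 14.6 and 12.2 TPM in the adult samples. The stages were apart, with a 9.58-fold higher mean (difference 2.55, SE 0.47, adjusted p = 0.00252).

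In cluster A the same groups rose. *Hoxa7*, a trunk gene, measured 1.32, 1.92 and 3.40 TPM in the embryonic and 21.2, 18.6 and 12.6 TPM in the adult samples. The lowest adult sample was well above the highest embryonic one, and the mean was 7.89-fold higher (difference 2.54, SE 0.40, adjusted p = 0.00113). Of the exonic bases of *Hoxa7*, 20.4% overlap the antisense RNA *Hoxaas3* on the other strand, which was listed at 0 in 5 samples and at 1.41 TPM in adult sample 3. *Hoxa5*, known for its part in lung, neck and shoulder development, measured 1.64, 0 and 0.610 TPM in the embryonic and 3.81, 7.24 and 7.62 TPM in the adult samples. It was low in every embryonic sample, and its mean was 8.31-fold higher in the adult (difference 2.11, SE 0.52, adjusted p = 0.0103). *Hoxa6* measured 0, 1.11 and 4.30 TPM in the embryonic and 5.46, 8.96 and 8.44 TPM in the adult samples. The stages were narrowly apart (difference 1.92, SE 0.62, adjusted p = 0.0324), and the call was lost on leaving out any sample except embryonic sample 3, at adjusted p between 0.0535 and 0.0991. In cluster D, *Hoxd8* measured 14.8, 18.3 and 13.5 TPM in the embryonic and 26.1, 23.0 and 25.7 TPM in the adult samples. It was thus one of the higher genes at both stages and differed least of the 14 (1.60-fold, difference 0.66, SE 0.23, adjusted p = 0.0476), and leaving out any 1 of the 6 samples put the adjusted p between 0.0530 and 0.133.

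Within clusters A, C and D, group 9 rose where group 10 did not pass the test. The group 9 genes act in the chest and loin and in the base of the limb. *Hoxc9* measured 3.49, 3.23 and 4.82 TPM in the embryonic and 23.7, 19.0 and 31.1 TPM in the adult samples. *Hoxd9* measured 4.97, 2.88 and 4.91 TPM in the embryonic and 27.7, 25.2 and 15.7 TPM in the adult samples. Both were apart in every sample, *Hoxc9* with a 6.39-fold higher mean (difference 2.39, SE 0.33, adjusted p = 0.000542) and *Hoxd9* with a 5.38-fold higher mean (difference 2.17, SE 0.36, adjusted p = 0.00138). *Hoxa9* was already high in the embryo, at 11.7, 15.2 and 19.2 TPM, against 24.3, 30.6 and 26.2 TPM in the adult. Its rise was smaller (1.76-fold, difference 0.80, SE 0.26, adjusted p = 0.0332), and without any 1 sample other than embryonic sample 3 the adjusted p lay between 0.0505 and 0.109. Summed, group 9 stood at 24.4 ± 4.13 TPM in the embryonic and 75.2 ± 0.513 TPM in the adult samples (SD, n = 3).

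Group 10, known for shaping the thigh bone and the lumbosacral spine, held more Hox RNA than any other group in the embryonic samples, and about as much as group 9 in the adult ones. *Hoxa10* measured 28.8, 25.4 and 28.3 TPM in the embryonic and 24.9, 34.4 and 30.4 TPM in the adult samples. The ranges overlapped, and the difference was 0.11 (SE 0.21, adjusted p = 0.694), with the sign turning to -0.03 under median-of-ratios scaling and under quantile normalization. *Hoxc10*, an embryonic marker of the hindlimb, measured 23.7, 30.6 and 38.7 TPM in the embryonic and 45.6, 48.0 and 40.7 TPM in the adult samples. The stages were apart, yet the difference of 0.54 (SE 0.22) did not pass (adjusted p = 0.0721). It did pass without embryonic sample 3 (0.71, adjusted p = 0.0446) and with TPM rescaled after removing the 20 highest genes (0.64, adjusted p = 0.0418). *Hoxd10*, linked to limb and motor neuron patterning, measured 6.27, 5.41 and 6.65 TPM in the embryonic and 2.72, 4.87 and 0.623 TPM in the adult samples. It is the 1 tested Hox gene whose adult values all lay below its embryonic values, but with adult samples spread widely the difference of -1.11 (SE 0.52) did not pass (adjusted p = 0.114). In all, 14 tested Hox genes had adult ranges above and 1 below the embryonic range. Of all tested genes 56.5% had ranges apart, 30.7% with the adult above and 25.9% with the adult below.

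**Figure D3:**
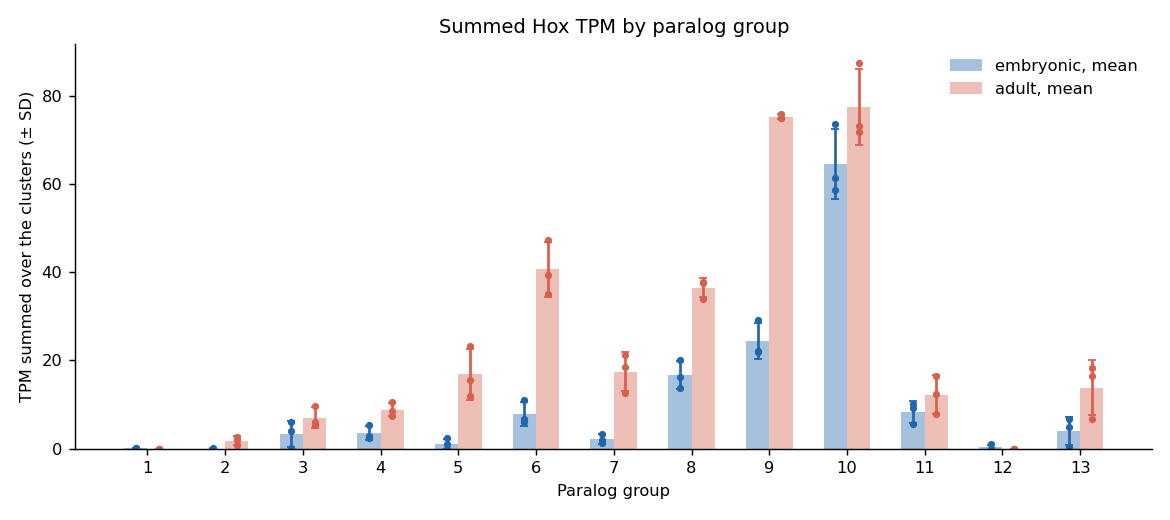
TPM summed over clusters A to D for each paralog group (horizontal axis), as stage mean (bars) ± SD (n = 3) with each sample as a point. Group 10 stands at 64.6 TPM in the embryonic and 77.4 TPM in the adult samples, while group 9 goes from 24.4 to 75.2 TPM.

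The make-up of the Hox RNA differed between stages. *Hoxa10* and *Hoxc10* together made up 42.6 ± 2.77% of all Hox TPM in the embryonic and 24.3 ± 2.14% in the adult samples (SD, n = 3). With *Hoxa9* and *Hoxd8* added, the share was 65.3 ± 5.55% against 41.2 ± 2.80%. These sets were put together after their levels were seen. The share of clusters moved less: cluster A held 40.4 ± 1.39% and 38.7 ± 3.69%, cluster C 34.2 ± 4.72% and 41.7 ± 2.70%, cluster D 23.1 ± 2.80% and 18.6 ± 2.66%, and cluster B 2.32 ± 3.09% and 1.04 ± 1.12%. For groups 9 and 10 the share was 64.9 ± 3.71% in the embryonic and 49.7 ± 3.77% in the adult samples, whereas groups 1 to 4 (5.37 ± 2.79% and 5.76 ± 0.675%) and groups 11 to 13 (9.22 ± 4.02% and 8.36 ± 2.90%) differed by less than their spread.

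**Figure D4:**
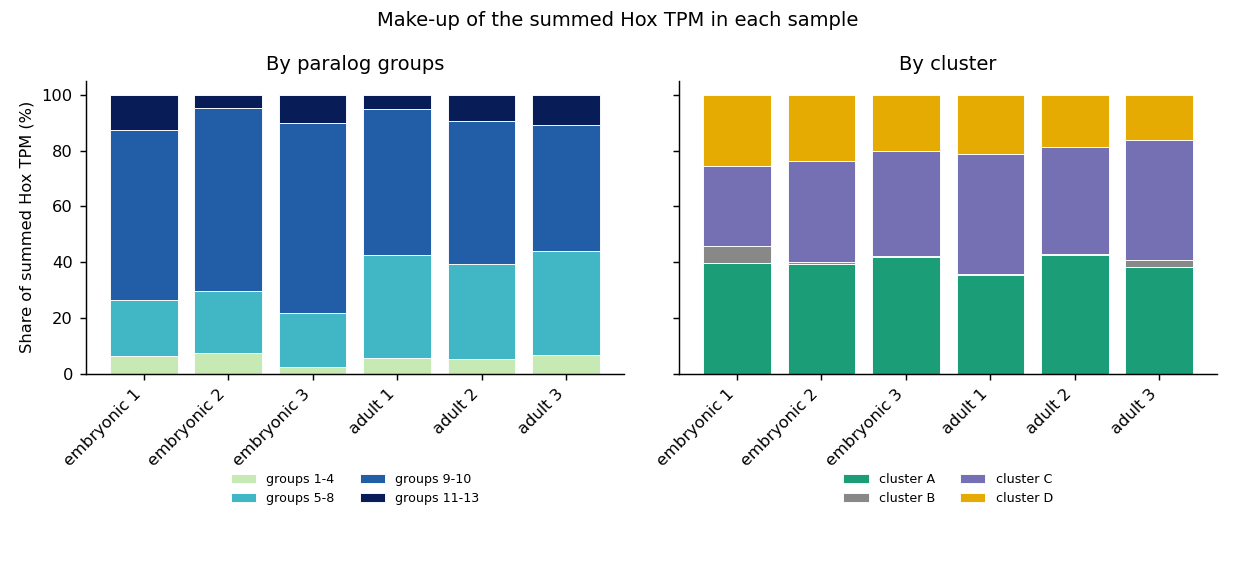
Share of the summed Hox TPM (vertical axis, percent) by paralog groups (left) and by cluster (right) in each of the 6 samples. Groups 5 to 8 hold 19.5% to 22.2% in the embryonic and 34.0% to 37.4% in the adult samples, while clusters A and C together hold most of the Hox RNA at both stages.

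The 5′ end of the clusters, groups 11 to 13, was uneven between clusters. *Hoxa11*, a gene of the shank and forearm, measured 2.53, 4.18 and 3.02 TPM in the embryonic and 7.53, 10.8 and 14.3 TPM in the adult samples. The stages were apart, with a 3.36-fold higher adult mean (difference 1.46, SE 0.39, adjusted p = 0.0145; 0.0531 without embryonic sample 1). Its antisense RNA *Hoxa11os*, which overlaps 35.0% of its exonic bases, measured 4.95, 2.78 and 3.04 TPM in the embryonic and 2.78, 14.5 and 7.53 TPM in the adult samples (difference 0.82, SE 0.55, adjusted p = 0.249). Whether the libraries kept strand is not given in the sources used here, so reads of the pair cannot be told apart. *Hoxa13*, a gene of the foot and the urogenital tract, measured 6.73, 0.500 and 3.98 TPM in the embryonic and 6.71, 16.4 and 18.2 TPM in the adult samples. Its stages touched, since adult sample 1 was level with embryonic sample 1 (difference 1.83, SE 0.64, adjusted p = 0.0452). Without adult sample 2, adult sample 3, embryonic sample 2 or embryonic sample 3 the adjusted p lay between 0.0813 and 0.131, and the difference was 1.15 without embryonic sample 2.

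In clusters C and D the same groups were low and scattered. *Hoxc11* measured 0, 1.09 and 4.68 TPM in the embryonic and 0.336, 1.66 and 0 TPM in the adult samples, which overlap (difference -0.58, SE 0.72, adjusted p = 0.537). *Hoxd11* measured 7.65, 0.371 and 1.56 TPM in the embryo, while the adult values were 0, 0 and 2.22 TPM. Embryonic sample 1 held most of it, and with 2 adult zeros no fold is given (adjusted p = 0.288). *Hoxd12* and *Hoxd13* were read only in embryonic sample 3, at 1.06 and 0.958 TPM. *Hoxc12* was at 0 in all samples, and *Hoxc13* did not exceed 0.0713 TPM. The digit and foot genes *Hoxd12* and *Hoxd13* thus did not exceed 1.06 TPM in knee cells. *Hoxa13* stood at 3.98 TPM or more in every sample except embryonic sample 2 (0.500 TPM).

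At the 3′ end, groups 1 to 4, levels were low. *Hoxa3*, a gene of the neck and pharynx, measured 0.208, 1.74 and 0.244 TPM in the embryonic and 4.55, 3.11 and 2.90 TPM in the adult samples. The stages were apart (difference 1.48, SE 0.51, adjusted p = 0.0410), but the call was lost without adult sample 1, adult sample 2, embryonic sample 1 or embryonic sample 3, at adjusted p between 0.0756 and 0.117. *Hoxd4*, a gene of the upper neck, measured 0, 1.28 and 1.57 TPM in the embryonic and 4.03, 3.56 and 6.38 TPM in the adult samples. It was higher in all adult samples (difference 1.62, SE 0.52, adjusted p = 0.0323), and without any 1 sample other than embryonic sample 3 the adjusted p lay between 0.0526 and 0.0980. Of the exonic bases of *Hoxd4*, 52.3% also belong to other GENCODE gene models on its strand, as do 62.3% of those of *Hoxd3*. Most of this is *Gm28230*, with 39.1% of *Hoxd4* and 53.1% of *Hoxd3*, which is not in the matrix. The 2 Hox genes share 13.2% of the exonic bases of *Hoxd4* and 9.26% of those of *Hoxd3*. How reads of that stretch were split between them is uncertain. *Hoxd3* stood between 0 and 2.06 TPM in the embryonic and between 0.434 and 1.61 TPM in the adult samples and was not tested under the mean of 1 TPM. *Hoxa2*, a hindbrain and neural crest gene, had 0 in each embryonic sample and 2.07, 0.798 and 2.76 TPM in the adult, with a mean just under the limit for testing. *Hoxa4* stood between 0 and 0.197 TPM and between 0 and 2.78 TPM. *Hoxc4* overlapped between stages (2.32, 4.20 and 1.03 against 3.45, 3.66 and 1.78 TPM, difference 0.24, SE 0.50, adjusted p = 0.718), and *Hoxd1* was at 0 throughout.

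Cluster B was nearly silent at both stages. Of its 10 genes, 8 stayed under 1 TPM in every sample, and *Hoxb5*, *Hoxb7*, *Hoxb8* and *Hoxb13* were listed at 0 in all 6. *Hoxb1* and *Hoxb2* reached at most 0.144 and 0.130 TPM, *Hoxb4* 0.547 TPM and *Hoxb6* 0.129 TPM. The exceptions were single samples. *Hoxb3* measured 5.46, 0.214 and 0 TPM in the embryonic and 0.986, 0.598 and 5.61 TPM in the adult samples, so that 1 sample of each stage held most of its signal (difference 0.47, SE 0.84, adjusted p = 0.668). *Hoxb9* measured 2.03, 0.596 and 0.274 TPM in the embryonic and 0.114, 0 and 1.93 TPM in the adult samples and was highest in the same 2 samples, embryonic sample 1 and adult sample 3. Of the exonic bases of *Hoxb3*, 52.9% overlap an antisense gene, *Hoxb3os*. A gene listed at 0 need not be absent, since TPM does not keep the depth behind a value.

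HOX proteins bind DNA with partners of the TALE homeodomain class, the PBX, MEIS and PKNOX proteins, which bring them to composite sites. All 9 TALE genes were tested, of which 1 was higher and 2 were lower in the adult, beside 23.9% and 21.4% of all tested genes. *Pbx2* measured 17.2, 11.2 and 16.0 TPM in the embryonic and 32.6, 30.6 and 27.0 TPM in the adult samples (difference 1.00, SE 0.25, adjusted p = 0.0110). *Pbx3* measured 63.8, 79.1 and 50.1 TPM in the embryonic and 21.7, 31.3 and 24.9 TPM in the adult samples (difference -1.27, SE 0.23, adjusted p = 0.00229). *Pknox2* measured 37.8, 37.6 and 33.5 TPM in the embryonic and 3.38, 16.5 and 20.6 TPM in the adult samples (difference -1.65, SE 0.53, adjusted p = 0.0326), and the adjusted p lay between 0.0834 and 0.1002 without 1 of the embryonic samples, and the difference was -0.94 without adult sample 1. The stage ranges of these 3 genes were apart, as were those of 56.5% of all tested genes.

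Of 29 chromatin and upstream regulators of Hox clusters, 26 were tested, with 6 higher and 7 lower in the adult, shares near the 23.9% and 21.4% of all tested genes. The 2 alternative methyltransferases of Polycomb complex 2 moved in opposite directions. *Ezh2*, named after its values were seen, measured 219, 137 and 173 TPM in the embryonic and 33.2, 37.2 and 25.1 TPM in the adult samples (difference -2.42, SE 0.22, adjusted p = 5.56e-05). *Ezh1* measured 3.56, 5.83 and 3.04 TPM in the embryonic and 36.5, 52.7 and 36.8 TPM in the adult samples (difference 3.08, SE 0.32, adjusted p = 0.000116). *Ezh2* was far above *Ezh1* in each embryonic sample, whereas *Ezh1* was the higher of the pair in each adult one. *Cbx7*, a subunit of Polycomb complex 1, rose from 0, 1.08 and 0 TPM in the embryo to 15.6, 17.3 and 4.99 TPM in the adult (adjusted p = 0.00204), and no fold is given.

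Retinoic acid, a signal that switches on 3′ Hox genes, is made by ALDH1A2 and broken down by CYP26B1. *Aldh1a2* measured 14.8, 8.15 and 19.7 TPM in the embryo, and each adult sample had 0 (adjusted p = 0.000248). *Cyp26b1*, also named after its values were seen, measured 31.7, 23.6 and 20.7 TPM in the embryonic and 119, 141 and 149 TPM in the adult samples (difference 2.40, SE 0.20, adjusted p = 3.37e-05). *Gdf11*, a secreted factor that turns on posterior Hox genes in the trunk, measured 12.5, 8.38 and 9.83 TPM in the embryonic and 0.0827, 2.49 and 1.05 TPM in the adult samples (difference -2.49, SE 0.51, adjusted p = 0.00424). The *Cdx* genes, activators of Hox clusters in the early trunk, were at 0 in all samples.

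Factors that tell hindlimb from forelimb were read beside the Hox genes, since the samples are labelled knee. *Pitx1*, the hindlimb factor, measured 80.1, 109 and 62.2 TPM in the embryonic and 79.6, 127 and 105 TPM in the adult samples (difference 0.32, SE 0.24, adjusted p = 0.301). *Tbx4*, which acts with it, measured 16.1, 22.3 and 12.7 TPM in the embryonic and 11.1, 10.7 and 8.86 TPM in the adult samples (difference -0.66, SE 0.30, adjusted p = 0.108). *Tbx5*, a factor of the forelimb, was also read, at 19.3, 13.3 and 18.8 TPM in the embryonic and 9.78, 5.91 and 1.88 TPM in the adult samples. The *Tbx5* stages were apart (difference -1.58, SE 0.49, adjusted p = 0.0278), and the adjusted p lay between 0.0506 and 0.0954 without adult sample 2 or any 1 embryonic sample, with a difference of -1.05 without adult sample 3. *Pitx1* exceeded *Tbx5* in every sample. *Tbx4* exceeded *Tbx5* in embryonic sample 2 and in each adult sample, but lay below it in embryonic samples 1 and 3. *Isl1*, an early hindlimb factor, measured 2.12, 2.63 and 0.307 TPM in the embryo but 0 in each adult sample.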

How the data were processed

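RNA-seq was measured in 6 mouse samples, 3 per stage, and the stages were taken from the sample titles. The labels write the embryonic age as 16.5 in weeks where the methods give E16.5, which is used here. The authors made cDNA from sorted cells, sequenced single-end reads of 50 bases, estimated levels with RSEM on GRCm38 with RefSeq annotation and deposited log2(TPM + 1) per gene; the RSEM version is not given in the sources used here. TPM adds up to 1000000 in every sample, so depth is not in the values and precision rests on the spread between 3 samples, which bears on low genes most.

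Symbols, positions and exons came from GENCODE M21 (GRCm38), with 21902 of 22032 identifiers matched, and promoters from RefSeq. Genes averaging 1 TPM or more entered a fit in limma 3.58.1 (R 4.3.3; lmFit, eBayes with trend) on log2(TPM + 1), a pseudocount of 1, with stage as the only term and Benjamini-Hochberg adjustment over all 13125 genes. The fit was tested on simulated data in which 200 of 13125 genes were changed. It called 27% of changes of 1 and 54% of changes of 2 on the log2 scale. Far fewer genes were changed there than passed in the data, so these rates need not hold here. A gene that did not pass may still differ between stages. EBSeq, which the methods name, needs counts and was not used here. A gene at 0 in 2 or more samples of a stage got no fold. Sums and shares of TPM carry no test.

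The 38 genes and the lists of partners, regulators, limb factors, other homeobox genes and markers were chosen with earlier results of these data known. All 38 genes are named, with full values for those past the threshold or with a mean of at least 5 TPM; from each other list at most 4 genes past the threshold with the largest change in each direction are named, with exceptions stated. 1 gene of the family and 1 of the marker lists are not reported here. Alternatives were another pseudocount, filter, scaling, variance model or threshold, a replicate block and leaving out each sample.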

Additional observations from a re-analysis of the deposited data

How the results depend on the processing

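At an adjusted p under 0.01 in place of 0.05, 3718 genes passed rather than 5949, and 6 Hox genes rather than 14. The Hox count lay between 8 and 12 with each sample left out. It was 10 with a pseudocount of 0.1, with median-of-ratios scaling, with quantile normalization and with a mean of at least 5 TPM (12 tested), 12 with no filter (32 tested), 13 without the variance trend, 14 with robust variances and 15 without the 20 highest genes. No Hox gene was lower in any of these. On the log2(TPM + 0.1) scale the differences of low genes were larger, at 2.62 for *Hoxa3*, 3.60 for *Hoxa5*, 3.22 for *Hoxa6*, 4.80 for *Hoxc5* and 2.91 for *Hoxd4*. Median-of-ratios scaling put the median of all genes at 0.03 and leaving out the 20 highest genes, which held 8.35% to 8.72% of embryonic and 13.1% to 15.3% of adult TPM, put it at 0.25, against 0.16. The sign turned only for Hox genes that had not passed: *Hoxa10* (-0.0339 with median of ratios, -0.0310 with quantile normalization) and, with each sample left out, *Hoxb3* (-0.16 to 1.32), *Hoxc4* (-0.10 to 0.57) and *Hoxc11* (-1.17 to 0.0791), each of them without embryonic sample 3 and *Hoxb3* also without adult sample 3. The replicate number as a block gave 11 Hox genes, all among the 14, and 5430 genes in all. Same-numbered samples did not deviate together (r of -0.01, -0.02 and -0.02 across genes), so no pairing by number was seen. The check would miss a pairing that left no common deviation. Low genes are limited by the unknown depth.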

Other observations

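Other homeobox genes of limb and skeleton moved both ways. Of 22 genes 19 were tested, with 5 higher and 5 lower in the adult, shares near the 23.9% and 21.4% of all tested genes. *Msx1*, a factor of undifferentiated limb mesenchyme, measured 0.952, 3.51 and 1.61 TPM in the embryonic and 35.2, 36.6 and 15.4 TPM in the adult samples (difference 3.31, SE 0.47, adjusted p = 0.000659). *Dlx5*, which promotes chondrocyte and osteoblast maturation, measured 8.24, 3.17 and 4.99 TPM in the embryonic and 43.1, 51.4 and 44.3 TPM in the adult samples (difference 2.94, SE 0.33, adjusted p = 0.000181). *Meox1*, a factor of the somites, measured 19.6, 22.1 and 32.5 TPM in the embryo while each adult sample had 0, and the related *Meox2* fell from 34.8, 24.1 and 38.3 TPM to 2.44, 5.06 and 7.86 TPM (difference -2.53, SE 0.40, adjusted p = 0.00111).

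Genes beside the clusters were read to compare them with the Hox genes within. Of the 24 nearest protein-coding genes, 18 were tested, with 6 higher and 2 lower in the adult, beside the same 23.9% and 21.4%. *Skap2*, next to the 3′ end of cluster A, measured 8.72, 8.80 and 12.7 TPM in the embryonic and 38.4, 32.0 and 53.4 TPM in the adult samples (difference 1.92, SE 0.28, adjusted p = 0.000744). *Snx11* lies beyond the nearly silent cluster B, with *Skap1* between them. *Snx11* measured 9.75, 7.02 and 5.65 TPM in the embryonic and 33.4, 35.0 and 22.8 TPM in the adult samples (difference 1.89, SE 0.31, adjusted p = 0.00130). *Hnrnpa1*, a splicing factor gene beyond cluster C whose near copies in the genome make its level uncertain, was at 769, 753 and 724 TPM and at 347, 366 and 356 TPM (difference -1.07, SE 0.10, adjusted p = 8.89e-05). Of the 5 genes between the outermost Hox genes that are not Hox genes, *Hoxa11os* was the 1 tested, and *Hotair*, a long non-coding RNA of cluster C, was at or near 0 with a highest value of 1.66 TPM.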
